A study of Mus musculus with 2 samples.

Results

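The genes described here encode 8 amino acid carriers of the plasma membrane or their subunit: Slc3a2, Slc7a11, Slc7a5, Slc7a6, Slc7a1, Slc1a4, Slc1a5 and Slc38a2. They were chosen by name as the cystine transporter and other carriers of the cell surface, with earlier results of these data known. All 8 had values among the 10982 genes of the expression table. The cells were cultures labelled as mouse neonatal cardiomyocytes, the beating muscle cells of the heart soon after birth. One group had received a negative control and the other an antagomir against FERPIR. An antagomir is a modified oligonucleotide that pairs with a small RNA and blocks it, and FERPIR is a piRNA, one of the small RNAs that work with PIWI proteins. Both groups carry the same treatment label, PBS, and the strain, the number of animals and the time after transfection are not stated in the labels used here. There were 2 libraries of RNA sequencing, 1 per group, so no difference has a replicate check, a test or an SD. Values are FPKM, that is, sequenced fragments per length of transcript and relative to the total of the library.

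Amino acids cross the plasma membrane through carriers that either exchange one amino acid for another or take them up with sodium. SLC3A2, also called 4F2hc or CD98 heavy chain, is a glycoprotein that brings several SLC7 light chains to the cell surface. With SLC7A11 (xCT) it forms system xc-, which imports cystine in exchange for glutamate and so supplies cysteine for glutathione, the cofactor of the lipid peroxide reductase GPX4. With SLC7A5 (LAT1) it imports leucine and other large neutral amino acids, which activate the growth kinase complex mTORC1. Many of these genes are known targets of ATF4, the transcription factor of the integrated stress response, which binds C/EBP-ATF response elements together with C/EBP family partners. Slc7a11 is also a known target of NRF2, which binds antioxidant response elements.

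RefSeq promoter windows on build GRCm38.p6, each from 250 bases before to 50 bases after an annotated start, were matched by symbol for 6 of the 8 genes, and Slc7a6 and Slc7a1 had 2 windows each. Both strands were searched for the C/EBP-ATF response element core TGATGNAA and the antioxidant response element core TGACNNNGC. The windows of 4 genes are printed 5′ to 3′ on the strand of the gene, because Slc7a11 and Slc1a4 hold the first motif and because Slc7a1 and Slc7a6 had the largest and the smallest difference between the libraries. Capitals mark the matches. The windows of Slc7a11 (chr3:50443564-50443863, minus strand) and Slc1a4 (chr11:20332664-20332963, minus strand) hold the first motif. Those of Slc7a1 (chr5:148399855-148400154, minus strand) and Slc7a6 (chr8:106168604-106168903, plus strand) hold the second.
Slc7a11: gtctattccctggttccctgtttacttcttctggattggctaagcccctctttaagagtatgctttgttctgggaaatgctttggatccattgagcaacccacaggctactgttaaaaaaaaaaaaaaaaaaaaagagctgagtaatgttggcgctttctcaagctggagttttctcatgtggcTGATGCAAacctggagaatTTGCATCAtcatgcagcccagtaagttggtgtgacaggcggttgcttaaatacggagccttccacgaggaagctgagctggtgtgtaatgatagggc
Slc1a4: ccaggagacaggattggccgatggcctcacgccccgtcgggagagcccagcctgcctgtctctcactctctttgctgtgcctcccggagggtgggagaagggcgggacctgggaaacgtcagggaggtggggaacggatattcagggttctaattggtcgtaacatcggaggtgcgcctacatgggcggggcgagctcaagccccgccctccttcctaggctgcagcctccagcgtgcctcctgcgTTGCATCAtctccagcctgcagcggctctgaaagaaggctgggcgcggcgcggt
Slc7a1: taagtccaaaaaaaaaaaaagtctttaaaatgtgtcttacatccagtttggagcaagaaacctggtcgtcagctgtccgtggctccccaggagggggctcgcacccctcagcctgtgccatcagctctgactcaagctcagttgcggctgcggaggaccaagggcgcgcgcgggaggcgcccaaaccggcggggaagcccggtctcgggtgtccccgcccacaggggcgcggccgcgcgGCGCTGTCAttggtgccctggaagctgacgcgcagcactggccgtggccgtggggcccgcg
Slc7a6: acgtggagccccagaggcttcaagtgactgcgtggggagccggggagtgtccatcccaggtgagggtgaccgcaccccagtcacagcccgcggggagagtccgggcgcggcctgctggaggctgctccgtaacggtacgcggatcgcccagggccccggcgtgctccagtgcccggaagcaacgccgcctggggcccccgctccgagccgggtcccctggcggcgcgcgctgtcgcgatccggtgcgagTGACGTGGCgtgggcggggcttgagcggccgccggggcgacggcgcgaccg

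Slc7a11 had 2 matches to the C/EBP-ATF core, facing each other: the first on the strand of the gene from base -66 to -59 before the start, the second on the opposite strand from -47 to -40. Slc1a4 had 1 such match, on the opposite strand, from 4 bases before to 4 bases after its start. Of all 32851 promoter windows 3.97% held this core at least once and 0.07%, or 23 windows, held it more than once. Among the 10870 windows of genes with expression values these shares were 2.24% and 0.0552%. The antioxidant core was found in the first window of Slc7a1 from -11 to -3, in Slc38a2 from -27 to -19 and in Slc7a6, where the same match lay in both windows. The second Slc7a1 window and the windows of Slc7a11 and Slc1a4 did not hold this core. It was held by 12.4% of all windows and 14.3% of those of genes with values. The window of Slc3a2 (chr19:8713848-8714147, minus strand) held neither set of letters. It lies within the annotated locus of the gene, and the sequence at the 5′ end of that locus, base 8723369, was not searched. No match of one motif lay over a match of the other in these windows. The Slc7a11 window had a GC content of 44.7% and 4 CpG dinucleotides, against a GC content of 76.7% and 42 CpG dinucleotides in the second Slc7a6 window. A match is a run of letters and not a measured binding site.

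**Figure D1:**
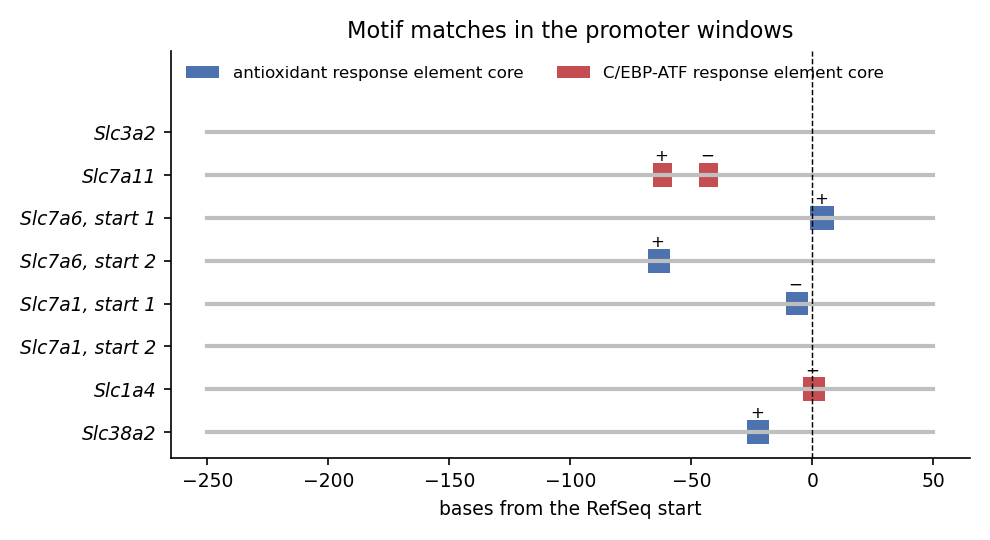
Matches to 2 motifs in the RefSeq promoter windows of 6 carrier genes; the x axis gives bases from the annotated start (dashed line), red blocks are the C/EBP-ATF core, blue blocks the antioxidant core, and + or − is the strand relative to the gene. Slc7a11 alone among them carries 2 matches to the C/EBP-ATF core.

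The label of the cells was checked against markers. Pairs of values are given with the control library first. Of 12 cardiomyocyte markers 2 had values, Tnnt2 with 1.48 and 8.19 FPKM and Tnnc1 with 4.39 and 18.9 FPKM, while Myh6 and Actn2 had none in the table used here. Nothing is read from a gene without a value, since every gene of the table has at least 0.5 FPKM in its higher library and the table may hold only part of the genes. Of 10 fibroblast markers 6 had values, summing to 548 FPKM with the negative control and 341 FPKM with the antagomir, and 3 of them were at least 1.5-fold lower, where 13.4% of all genes reaching 1 FPKM were that much lower and 10.8% that much higher. Col1a1 was one of the 3 (58.5 and 24.2 FPKM), Dcn had 52.3 and 39.0 FPKM, and Pdgfra, whose exons overlap predicted genes, had more with the antagomir (1.19 and 1.66 FPKM). Smooth muscle and pericyte markers summed to 1331 and 891 FPKM over 4 of 6 genes, most of it Acta2 (1305 and 845 FPKM), but their median log2 ratio was 0.20. Tagln, whose exons overlap Pcsk7, was 2.02-fold higher (18.2 and 37.8 FPKM) and Cnn1 had 1.79 and 2.91 FPKM. Epicardial markers had values for 2 of 4 genes, summing to 39.0 and 29.9 FPKM, erythroid markers for 2 of 4, summing to 14.4 and 20.8 FPKM, macrophage markers for 1 of 7, Lyz2, with 3.28 and 4.44 FPKM, and endothelial markers for 0 of 6. These marker levels differed between the same 2 libraries as the carriers, and their part in the carrier values was not tested. In bulk cultures fewer cells of a type and less RNA per cell cannot be told apart. Over all genes FPKM summed to 295404 with the negative control and 312806 with the antagomir, and the number of reads is unknown.

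The question of the comparison was what FERPIR knockdown does to gene expression in these cells. All 8 carrier genes had lower FPKM in the antagomir library than in the control library, and 6 of them were at least 2-fold lower on the scale of log2(FPKM + 1) used throughout, which understates differences of low genes. Of the 10201 genes reaching 1 FPKM in either library, 3.79% were at least 2-fold lower and 2.88% at least 2-fold higher. At a 1.5-fold limit 7 of the 8 carriers were lower and 0 higher, where the shares of all genes were 13.4% and 10.8%. The median log2 ratio, antagomir over control, was -1.29 over the 8 carriers and -0.05 over all genes tested. Because the 8 genes were chosen with earlier results of these data known, these shares and medians are a description and not a test. Summed over the 8 genes the level was 559 FPKM with the negative control and 219 FPKM with the antagomir, which is 0.189% and 0.0699% of all FPKM. Among genes reaching 5 FPKM, which 7 of the carriers do, 4.9% were at least 2-fold lower.

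**Figure D2:**
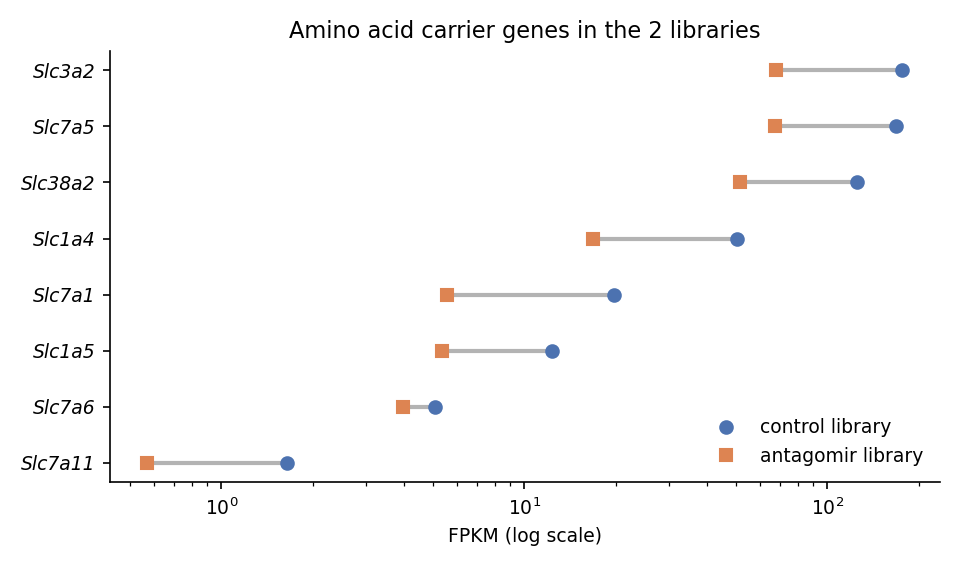
FPKM of each carrier gene on a log scale in the control library (blue circles) and the antagomir library (orange squares), 1 library each, joined by a grey line. Every antagomir value lies below the control value, and the order of the 8 genes is the same in both libraries, from Slc3a2 at the top to Slc7a11 at the bottom.

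The shared heavy chain Slc3a2 (chr19:8706882-8723369) had the highest level of the 8 genes in both libraries, 176 FPKM with the negative control and 67.5 FPKM with the antagomir. Its log2 ratio was -1.37, or 2.59-fold lower. By level it ranked 264th among all genes with the negative control and 824th with the antagomir. Slc7a5 (chr8:121881150-121907694), the light chain that carries leucine and other large neutral amino acids, followed closely with 168 and 67.4 FPKM, a log2 ratio of -1.31. By the distance between the pairs of log2(FPKM + 1) values over the 2 libraries, Slc7a5 was the nearest gene of the table to Slc3a2, at 0.07, and Slc3a2 the nearest to Slc7a5. The next nearest to Slc3a2 were Creld2 (188 and 68.4 FPKM), which encodes a protein of the endoplasmic reticulum, at 0.09, and Snx3 (178 and 72.6 FPKM), a sorting nexin of endosomes, at 0.11. The same pair followed for Slc7a5.

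Slc7a11 (chr3:49892526-50443614), the cystine carrying light chain, stood at the other end of the levels, with 1.64 FPKM with the negative control and 0.57 FPKM with the antagomir. The ratio of these FPKM values was 2.88, while the log2 ratio with 1 FPKM added was -0.75, a 1.68-fold difference. With 0.1 FPKM added in its place the log2 ratio was -1.38, and with 0.01 FPKM it was -1.51, so the size of this difference depends on the pseudocount. The number of reads behind so low a level is unknown. Slc7a6 (chr8:106168857-106198706), the light chain of y+LAT2, which exchanges cationic for neutral amino acids, had 5.06 and 3.97 FPKM. Its log2 ratio of -0.29 was the smallest difference of the 8 genes, and 30.0% of all genes tested had a log2 ratio as low or lower.

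Because FPKM is per length, heavy and light chain levels can be set side by side within a library, and their ratio does not depend on the library total. Light chains known to pair with SLC3A2 had values for Slc7a5, Slc7a6, Slc7a7 and Slc7a11. Slc7a8 and Slc7a10, which also belong to this set, had no value, so the light chain sums and shares may be incomplete. Together they reached 177 FPKM with the negative control and 74.6 FPKM with the antagomir, against 176 and 67.5 FPKM of Slc3a2. The heavy chain level per light chain level was 0.997 with the negative control and 0.905 with the antagomir. Slc7a5 made up 95.01% of the light chain sum with the negative control and 90.4% with the antagomir. Slc7a11 made up 0.929% and 0.765%, so the level of Slc7a5 was 102 times that of Slc7a11 with the negative control and 118 times with the antagomir. Slc7a6 went from 2.86% to 5.32% of the sum. Slc7a7, the light chain of y+LAT1 and not one of the 8 genes, had 2.12 and 2.65 FPKM and its exons overlap Oxa1l.

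**Figure D3:**
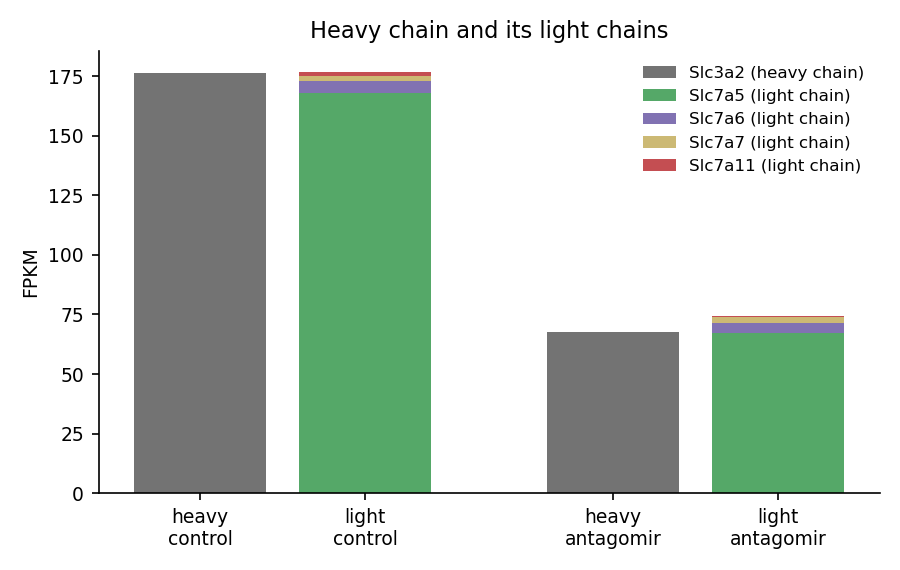
FPKM of the heavy chain gene Slc3a2 (grey) and the stacked FPKM of its light chain genes with values (colours) in the control and antagomir libraries, 1 library each, on a linear axis from 0. Heavy and light chain sums are close to each other in both libraries, and Slc7a5 (green) fills most of each light chain bar.

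The carriers that work without the heavy chain were lower as well. Slc7a1 (chr5:148327410-148399904), which encodes CAT1, the uptake route for arginine and lysine, had 19.8 FPKM with the negative control and 5.55 FPKM with the antagomir. Its log2 ratio of -1.67, or 3.17-fold lower, was the largest difference of the 8, and 0.657% of all genes tested had a log2 ratio as low or lower. Slc1a4 (chr11:20302180-20332713), which encodes ASCT1, a sodium-dependent exchanger of alanine, serine and cysteine, had 50.3 and 16.9 FPKM, 2.87-fold lower. Its relative Slc1a5 (chr7:16781340-16798274), which encodes ASCT2, a carrier of glutamine and small neutral amino acids, had 12.4 and 5.36 FPKM, 2.10-fold lower. The level of Slc1a4 was 4.07 times that of Slc1a5 with the negative control and 3.15 times with the antagomir. Slc38a2 (chr15:96687394-96699698), which encodes SNAT2, a sodium-coupled carrier of small neutral amino acids such as alanine and glutamine, had 126 and 51.5 FPKM, 2.41-fold lower. Slc3a2, Slc7a5 and Slc38a2 together held 84.1% of the summed level of the 8 genes with the negative control and 85.2% with the antagomir.

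**Figure D4:**
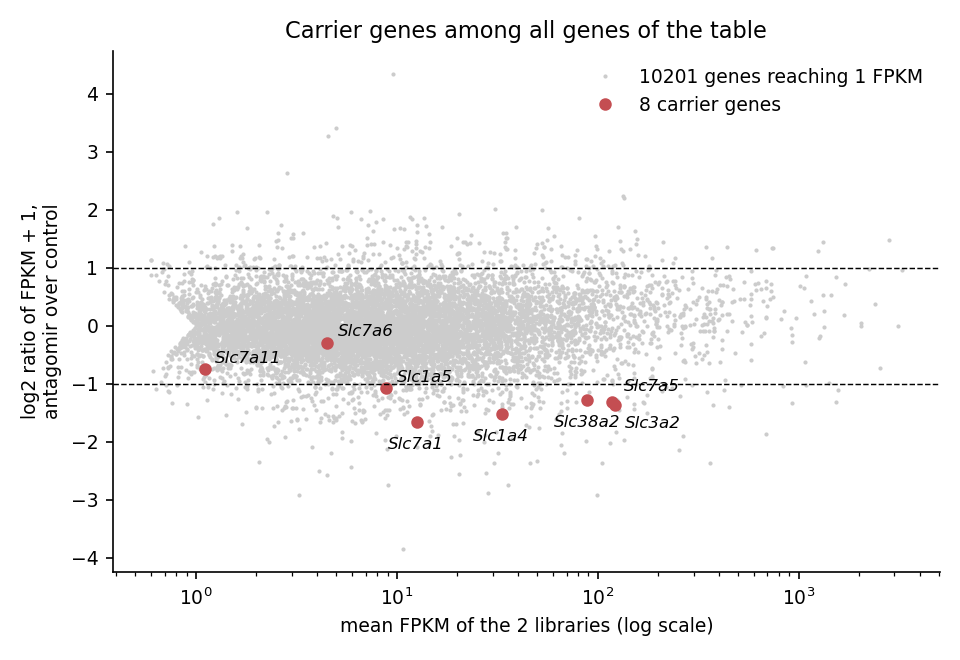
Log2 ratio of FPKM + 1, antagomir over control, against the mean FPKM of the 2 libraries (log scale) for the 10201 genes reaching 1 FPKM (grey) and the 8 carriers (red); dashed lines mark 2-fold differences. Of the carriers, Slc7a6 and Slc7a11 lie between the dashed lines and the other 6 below the lower one.

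Exons of the 8 genes overlapped those of no other gene in the GENCODE M21 annotation. Across all genes, longer transcripts had lower log2 ratios, and when genes were split into 5 equal groups by length the median went from 0.26 for the shortest to -0.20 for the longest. Slc7a11, Slc7a1 and Slc38a2, with longest annotated transcripts of 9223, 7179 and 6116 nucleotides, belonged to the longest group. With the trend over length and GC content removed, the median log2 ratio of the 8 carriers was -1.20 and 6 were still at least 2-fold lower, Slc7a1 at -1.49 and Slc38a2 at -1.10, while Slc7a11 came to -0.57 and Slc7a6 to -0.19. Of all genes tested 388 were then at least 2-fold lower, against 387, or 3.79%, before. At the 1.5-fold limit 6 carriers were lower in place of 7, as Slc7a11 no longer reached it. The matching share of all genes was not computed.

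Of 30 further amino acid carriers, 10 had values and 9 reached 1 FPKM, of which 3 were at least 1.5-fold lower and 1 was higher, beside 13.4% and 10.8% of all genes. The median log2 ratio of these 9 was -0.31. Among those reaching 5 FPKM, which are fewer, the median was -0.98. Slc38a7, a glutamine carrier of lysosomes, had 15.1 and 2.69 FPKM, 4.37-fold lower, a larger difference than any of the 8 surface carriers. Slc6a9, the glycine transporter GLYT1, had 25.9 and 6.25 FPKM, and its exons overlap B4galt2. Slc38a1, which encodes SNAT1, a close relative of Slc38a2, had 17.0 and 8.15 FPKM, a log2 ratio of -0.98. The taurine transporter gene Slc6a6 had 13.3 and 10.5 FPKM, and Slc38a10 had 15.03 and 14.6 FPKM, a log2 ratio near 0 that turned positive under 2 of 4 rescalings. Exons of Slc6a6 and of Slc38a10 each overlap a predicted gene. The 1 higher gene, Slc36a1, a proton-coupled carrier, had only 0.444 and 1.49 FPKM.

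Of 15 tested genes that use cystine or turn over glutathione, 3 were at least 1.5-fold lower and 3 higher. The shares of all genes were 13.4% and 10.8%. The median log2 ratio of the 15 was 0.11. As TPM all 16 genes with values passed the minimum of 1, and the median over these 16 was -0.059. The middle gene of the 15 had 0.037 as TPM. Chac1, which degrades glutathione, had 140 and 34.6 FPKM, 3.96-fold lower. Cth, which makes cysteine from cystathionine, had 92.2 and 41.3 FPKM, 2.20-fold lower. Ctns, the exporter of cystine from lysosomes, had 6.28 and 2.73 FPKM. Higher were Txn1, the thiol reductase thioredoxin (397 and 675 FPKM), and Chac2, a relative of Chac1 (9.97 and 17.2 FPKM). Both came under the 1.5-fold limit once the trend over length and GC content was taken out, Txn1 at a log2 ratio of 0.49 and Chac2 at 0.52. The remaining higher gene, Mfsd12, whose exons overlap Fzr1, had 2.19 and 4.23 FPKM. It stayed above that limit with the trend removed, at 0.66. The catalytic subunit gene of glutathione synthesis, Gclc, had 20.5 and 14.5 FPKM, and glutathione reductase, Gsr, had 11.3 and 13.4 FPKM.

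Among enzymes that use glutamine, glutamate, asparagine, proline or serine, 6 of 20 were at least 1.5-fold lower and 1 was higher, beside 13.4% and 10.8% of all genes, with a median log2 ratio of -0.26. Aldh18a1, which starts proline synthesis from glutamate, had 65.1 and 31.8 FPKM, 2.02-fold lower. The transaminase genes Gpt2 (20.6 and 10.1 FPKM) and Got1 (155 and 80.5 FPKM) had log2 ratios of -0.96 and -0.94. Asns, which makes asparagine and is a standard ATF4 target, had 183 and 134 FPKM, a log2 ratio of -0.45. Glul, which makes glutamine and whose exons overlap Teddm2, had 17.7 and 23.7 FPKM.

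**Figure D5:**
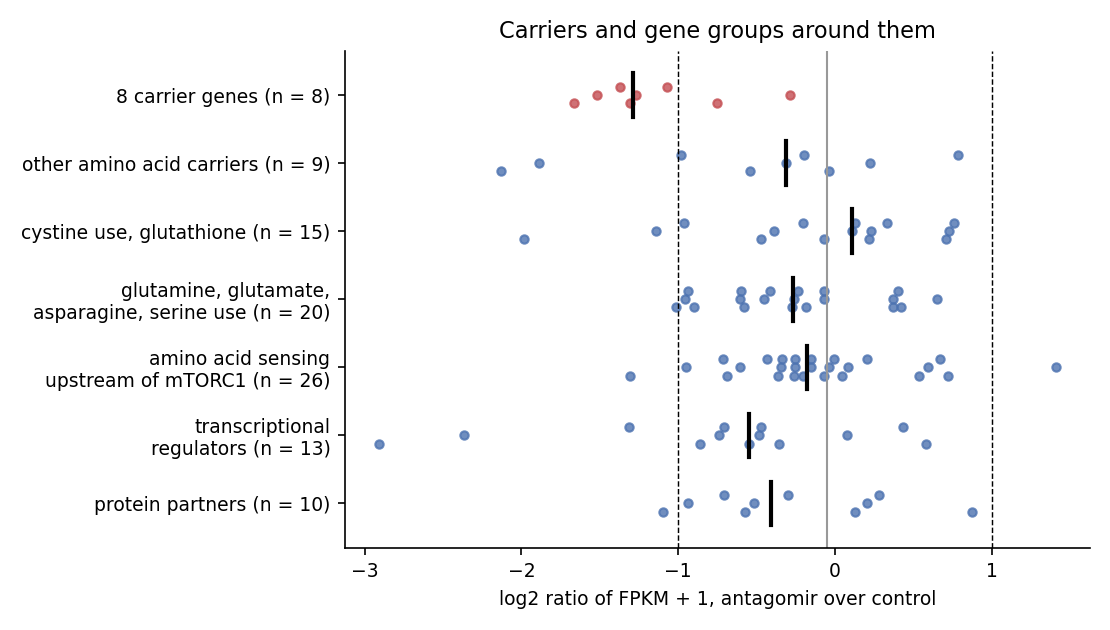
Log2 ratio of FPKM + 1, antagomir over control, for the 8 carriers (red) and the genes of 6 related groups (blue), 1 point per gene reaching 1 FPKM; black bars are medians, the grey line is the median of all genes tested and dashed lines mark 2-fold differences. The carriers' median of -1.29 lies below those of the 6 groups, which range from -0.55 to 0.11. With a minimum of 5 FPKM, not drawn here, the further amino acid carriers had a median of -0.98 and the 8 carriers' list one of -1.31.

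Of 13 tested genes for transcription factors and their cofactors known to regulate such carriers, 6 were at least 1.5-fold lower and 0 were higher, beside 13.4% and 10.8% of all genes, with a median log2 ratio of -0.55. Atf4 itself was at 563 and 406 FPKM, or -0.47 on the log2 scale. Among its targets and partners, the CHOP gene Ddit3, whose exons overlap Mars, had 609 and 117 FPKM, and Atf3 had 176 and 22.5 FPKM. Atf5, whose exons overlap Nup62, had 189 and 200 FPKM. Its log2 ratio of 0.08 came to -0.18 with the trend over length and GC content removed. Cebpb, whose exons overlap Tmem189, had 145 and 113 FPKM, a log2 ratio of -0.36. With that trend removed Cebpb came to -0.82 and Atf4 to -0.59, both past the 1.5-fold limit. Bach1, another gene of this list (3.41 and 4.96 FPKM), then passed it on the higher side, at 0.60. The counts of 6 lower and 0 higher thus change with the trend removed. Myc, a known activator of Slc1a5 and Slc7a5, had 77.0 and 30.4 FPKM, 2.49-fold lower. Nfe2l2, which encodes NRF2, had 73.0 and 43.2 FPKM. Keap1, which targets NRF2 for degradation and whose exons overlap a predicted gene, had 6.37 and 10.03 FPKM. FPKM of a factor's gene is a transcript level and not its activity.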

How the data were processed

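RNA was sequenced from 2 cultures, 1 library per group, with groups read from the titles of the samples. The authors deposited FPKM values per gene, and the submitters' processing notes name HISAT2, cutadapt and StringTie (1.3.3) and the build GRCm38. Annotation release, settings and strand use are not given in the sources used. Per the labels' protocols, polyadenylated RNA was isolated and libraries were made with a stranded kit, but the same protocol goes on to ligate adaptors to both ends, as for small RNA, so the type of library is uncertain. FERPIR itself has no row among the genes analysed, so its knockdown could not be checked. Of 10992 lines, those of 10 repeated symbols were summed. Low FPKM values times transcript length showed no steps of whole reads, so depth is unknown and no counting interval is given. FPKM divides by the library total, so more of a few abundant genes lowers all others.

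No test was possible with a single library in each group. Ratios are antagomir over control after 1 FPKM was added to each value, on the log2 scale, and genes reaching 1 FPKM in either library were counted at 2-fold and 1.5-fold limits. Transcript length, GC content and exon overlaps came from GENCODE M21 on GRCm38, matched by gene identifier without version for 10982 lines. Promoters came from RefSeq. The rule for named genes took all 8 carriers, in each related list up to 3 genes at either end reaching 5 FPKM and any gene with a 2-fold difference, the first 3 markers of each cell type, and the 3 genes nearest to Slc3a2 and Slc7a5. Outside it, chosen after their values were seen, are Gclc, Mfsd12, Asns, Atf4, Bach1, Nfe2l2, Slc36a1, Tnnc1, Cnn1, Lyz2, Lamtor1, Lamtor3 and Lamtor5. Some genes that the rule allows are not named. Slc7a7, Slc7a8 and Slc7a10, also outside it, are named as light chains of Slc3a2. Members and lists were chosen with earlier results of these data known. The alternatives tried were a pseudocount of 0.1 or 0.01, a minimum of 5 FPKM or none, TPM, median centring, a library total without ribosomal protein, hemoglobin and mitochondrially encoded genes, and removal of the trend over length and GC content. Python 3.11.15, numpy 2.4.6, pandas 2.3.3 and matplotlib 3.10.9 were used. Only the fold counts and the trend removal were tested on simulated data.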

Additional observations from a re-analysis of the deposited data

How the results depend on the processing

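All 63 recomputed log2 ratios of the 8 carriers were below 0. A changed minimum leaves a ratio as it is, and a pseudocount cannot turn its sign. Only TPM, median centring, the changed library total and the trend removal could have turned one. The count at least 2-fold lower was 6 or 7 under each of the 8 alternatives that give it, with medians from -1.38 to -1.20. Of all genes, 387 were at least 2-fold lower and 294 higher. With a pseudocount of 0.1 FPKM these counts were 635 and 492, with 0.01 FPKM 676 and 524, and as TPM 724 were lower. With the trend over length and GC content removed 388 were lower and 187 higher. The median of the further amino acid carriers was -0.98 at a minimum of 5 FPKM, which leaves fewer genes. That of cystine and glutathione genes was 0.11 over 15 genes and -0.059 over 16 genes as TPM, where a gene below 1 FPKM passed the minimum. The middle gene of the 15 stayed above 0 as TPM, at 0.037. Slc3a2 per light chain in the antagomir library was 0.907 of the control value, 0.894 with the trend removed and 0.929 with Slc7a5, Slc7a6 and Slc7a11 alone. None of the lists held one of the 8 carriers, so lists without them were not run. No paired analysis was possible because each group had 1 library. Depth is unknown, which limits Slc7a11 most.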

Other observations

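Genes that sense leucine and arginine upstream of mTORC1 had a median log2 ratio of -0.18 over 26 tested genes. Of these, 5 were lower and 4 higher by at least 1.5-fold, beside 13.4% and 10.8% of all genes. Sesn2, a leucine sensor that is induced under stress, was 2.48-fold lower, at 25.004 FPKM with the negative control and 9.49 FPKM with the antagomir, whereas its relative Sesn1 had 5.86 and 9.35 FPKM, 1.51-fold higher. Rragc, a GTPase that recruits mTORC1 to lysosomes and whose exons overlap a predicted gene, had 41.9 and 25.1 FPKM, and Fnip2, a partner of folliculin, had 5.68 and 2.45 FPKM. Of the 5 subunits of the Ragulator complex, which anchors these GTPases, Lamtor4 had 26.7 and 72.7 FPKM, 2.66-fold higher. Lamtor2 had 45.8 and 73.5 FPKM; its log2 ratio went from 0.67 to 0.09 once the trend over length and GC content was taken out. Before that removal the other subunits differed less: Lamtor1, whose exons overlap Lrrc51, had 30.9 and 35.8 FPKM, Lamtor3 13.2 and 11.4 FPKM and Lamtor5 92.4 and 88.1 FPKM. After it their log2 ratios were 0.13, -0.17 and -0.43, each larger in size than that of Lamtor2.

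Among 10 genes whose proteins stabilise, localise or degrade carriers, 3 were at least 1.5-fold lower and 1 higher, beside 13.4% and 10.8% of all genes, with a median log2 ratio of -0.41. Nedd4, a ubiquitin ligase, had 67.3 and 30.9 FPKM, 2.14-fold lower. Lgals3, which encodes galectin-3, a lectin that binds CD98, had 565 and 295 FPKM. Bsg, which encodes basigin, had 324 and 394 FPKM.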
